A study of Rattus norvegicus with 6 samples.

Results

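The genes that copy DNA in S phase were followed in back skin of Sprague-Dawley rats, an outbred laboratory strain, as a list of 40 symbols matched to the gene names of the deposited count table. Of these 39 were found, out of 34225 loci in all, and all 39 passed the filter on low counts and were tested among 16398 genes. E2f1 was not analysed here. The 6 libraries fell into 3 groups of 2. Rats of the afatinib group were given 30 mg/kg of afatinib by mouth each day until a rash appeared, and rats of the gefitinib group 80 mg/kg of gefitinib in the same way. The third group is labelled WT and untreated, and the labels name no allele and no further agent for any group. The doses differed between the inhibitors, and the time to the rash, the age and the sex of the animals are not given in the labels. Both drugs are anilinoquinazolines that inhibit the epidermal growth factor receptor (EGFR); gefitinib binds it reversibly and afatinib covalently. No label says whether the 2 libraries of a group came from separate animals, so the p-values measure the spread between these libraries, which may be technical.

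A cell copies its genome by first loading the ring-shaped MCM helicase onto origins in G1 phase, which is called licensing. Kinases then turn the ring into an active helicase, and polymerases, a sliding clamp and its loader copy both strands while deoxynucleotides are made and new chromatin is built. Many genes of this machinery are transcribed around the G1/S transition under E2F transcription factors, and in normal skin S phase is found mainly in basal keratinocytes and in the hair matrix.

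The libraries held 17206456 and 18619303 counts with afatinib, 19772043 and 20560892 with gefitinib, and 20166522 and 22086673 without treatment. All 8 markers of basal keratinocytes were detected in every library. Their summed level was 2744 and 4362 CPM (reads per 1e6 counted reads, scaled by TMM between libraries) with afatinib, 2569 and 2571 CPM with gefitinib, and 1910 and 1315 CPM in untreated skin. The 8 basal markers did not move together. Krt5 had 17661 and 45781 reads with afatinib, 28927 and 27926 with gefitinib, and 5933 and 4318 in untreated skin. Dst had 4527 and 5830 reads with afatinib, 2676 and 2843 with gefitinib, and 5556 and 7690 in untreated skin. All 6 hair matrix markers were detected as well, with sums of 204 and 618 CPM with afatinib, 770 and 777 CPM with gefitinib, and 15.5 and 66.6 CPM in untreated skin. The 16 skeletal muscle markers found, of 20 listed, took 15.1% and 5.39% of all counts with afatinib, 4.99% and 8.67% with gefitinib, and 20.2% and 18.7% in untreated skin. All 6 T cell markers summed to 10.9 and 14.7 CPM with afatinib, 8.38 and 7.87 CPM with gefitinib, and 6.08 and 3.37 CPM in untreated skin. The T cell markers did not move together either. Zap70 had 26 and 51 reads with afatinib, 26 and 45 with gefitinib, and 2 and 1 in untreated skin. Cd3e had 9 and 37 reads with afatinib, 21 and 1 with gefitinib, and 22 and 9 in untreated skin. The neutrophil sum was 9.55 and 22 CPM with afatinib, 6.27 and 4.68 CPM with gefitinib, and 0.691 and 0.872 CPM in untreated skin, and Fpr1, 1 of its 5 markers, was at 0 in every library. All 5 mast cell markers summed to 75.9 and 62.8 CPM with afatinib, 61.6 and 85.6 CPM with gefitinib, and 19.5 and 22.9 CPM in untreated skin. These markers did not move together. Kit had 292 and 744 reads with afatinib, 1038 and 1296 with gefitinib, and 116 and 156 in untreated skin. Cpa3 had 375 and 94 reads with afatinib, 86 and 94 with gefitinib, and 115 and 119 in untreated skin.

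Markers of structural cell types moved as well. The 13 hair shaft and inner root sheath markers found, of 14 listed, summed to 1206 and 4349 CPM with afatinib, 5441 and 3938 CPM with gefitinib, and 76.2 and 266 CPM in untreated skin. Krt71, Krt72, Krt25 and Krt27 among them are keratins of the inner root sheath. All 5 Schwann cell markers summed to 149 and 99.04 CPM with afatinib, 121 and 77.2 CPM with gefitinib, and 979 and 625 CPM in untreated skin. All 5 fibroblast markers summed to 5134 and 2035 CPM with afatinib, 3542 and 777 CPM with gefitinib, and 10083 and 5026 CPM in untreated skin. The hair shaft and inner root sheath sum and the mast cell sum were thus higher in every inhibitor library than in both untreated ones. The Schwann cell sum was lower in every inhibitor library than in both untreated ones. The fibroblast sum of afatinib replicate 1 lay between those of the untreated pair. The sum of 4 endothelial markers, of 5 listed, was 204 and 166 CPM with afatinib, 125 and 53.4 CPM with gefitinib, and 392 and 295 CPM in untreated skin. All 4 sebocyte markers summed to 167 and 440 CPM with afatinib, 406.9 and 269 CPM with gefitinib, and 95.8 and 106 CPM in untreated skin. The sebocyte markers did not move together. Fasn had 1400 and 6245 reads with afatinib, 5141 and 3693 with gefitinib, and 472 and 752 in untreated skin. Awat2 had 32 and 257 reads with afatinib, 62 and 40 with gefitinib, and 29 and 126 in untreated skin. The inhibitor and untreated libraries overlapped for the suprabasal keratinocyte, macrophage, adipocyte, B cell and erythroid sums. The part of all these cell types in the results below was not tested. In bulk skin, more cells in S phase and more RNA of these genes per cell cannot be told apart.

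The replication genes were higher in skin with a rash. Summed over the 39 genes, their level was 762 and 1171 CPM with afatinib, 1352 and 1373 CPM with gefitinib, and 369 and 457 CPM in untreated skin. Every inhibitor library lay above both untreated libraries, and afatinib replicate 1 was the lowest of the 4 inhibitor libraries. Of the 39 genes 10 rose with afatinib and 0 fell (edgeR quasi-likelihood test, Benjamini-Hochberg adjusted p under 0.05), where 3.6% of all tested genes rose. With gefitinib 33 rose and 0 fell, where 12.3% of all tested genes rose. For the mean of both inhibitors 31 rose and 0 fell, against 11% of all genes. The median log2 fold change of the 39 genes was 1.39 with afatinib, 1.88 with gefitinib and 1.55 for their mean, while the medians over all tested genes were 0.09, 0.04 and 0.06. All 3 comparisons use the same untreated libraries, so they are not independent of each other.

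**Figure D1:**
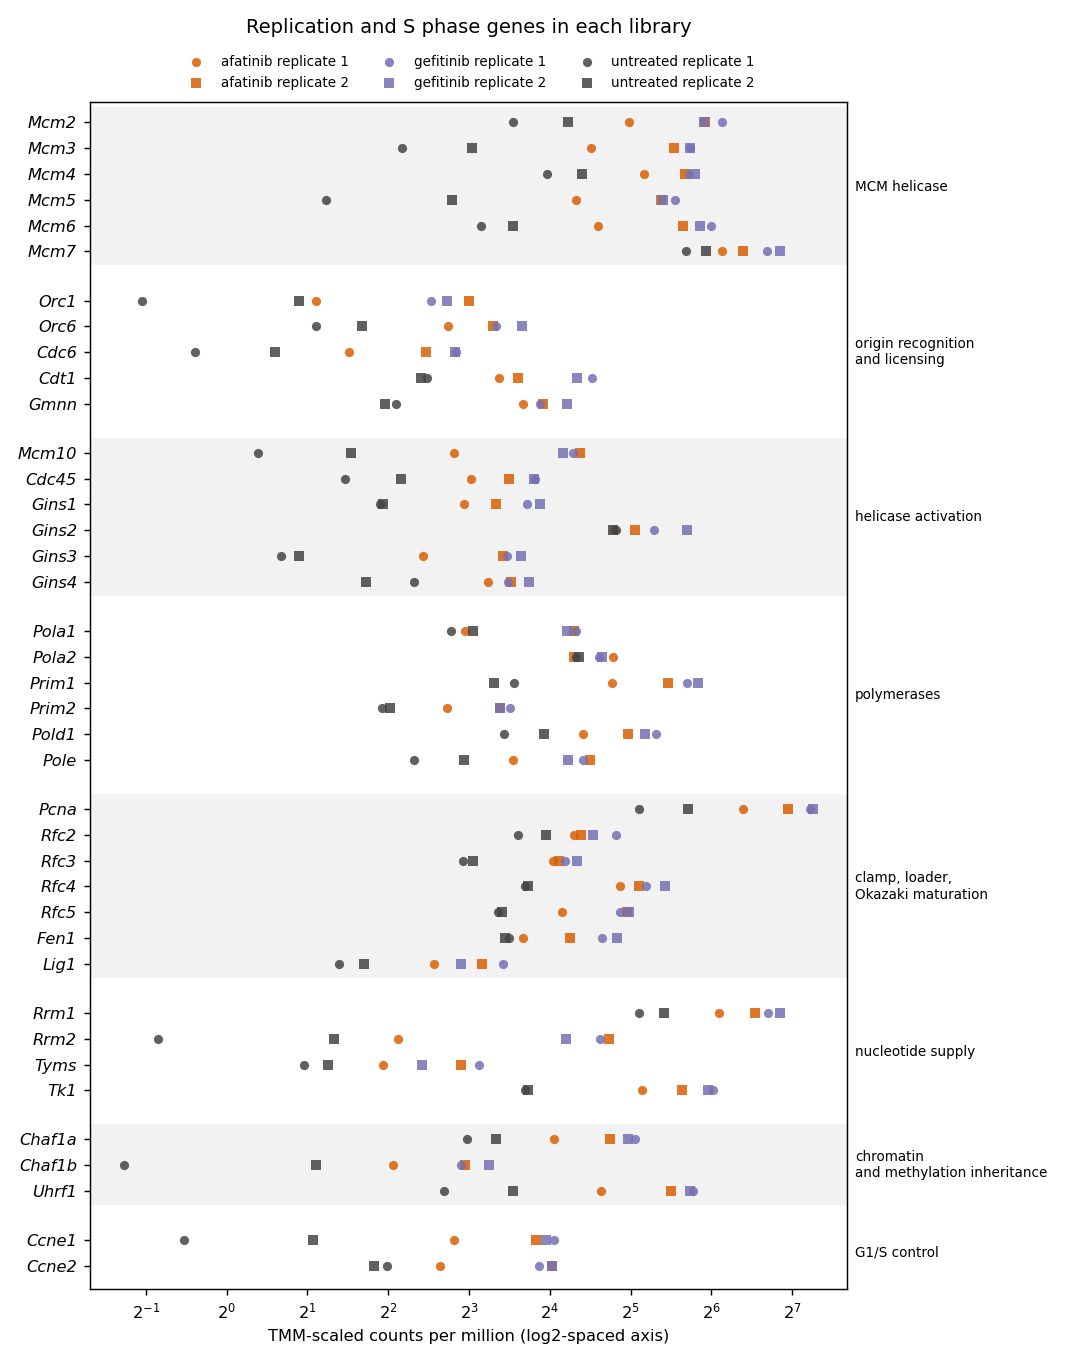
TMM-scaled CPM (log2-spaced axis) of the 39 replication genes in each of the 6 libraries, grouped by role, with circles for replicate 1 and squares for replicate 2. Both gefitinib libraries lay to the right of both untreated libraries for all 39 genes, and afatinib replicate 1 lay between them and the untreated libraries for 36.

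The order of the libraries was much the same from gene to gene. Both afatinib libraries lay above both untreated libraries for 36 of the 39 genes, the exceptions being Gins2, Pola1 and Pola2, where 31.5% of all tested genes had that order. Both gefitinib libraries lay above both untreated libraries for all 39, against 38.8% of all genes. Afatinib replicate 1 lay above both untreated libraries and below the other 3 inhibitor libraries for 36 genes, against 19.7% of all genes. It was below afatinib replicate 2 for 38 genes, all but Pola2, against 53.8% of all genes. Afatinib replicate 1 also had the lowest hair matrix sum and the highest muscle share of the 4 inhibitor libraries, as given above. Its basal keratinocyte sum of 2744 CPM was above those of both gefitinib libraries, at 2569 and 2571 CPM. Among the untreated libraries replicate 1 was the lower for 32 genes, against 49.8% of all genes. Its hair matrix sum was the lower as well, but its basal keratinocyte sum was the higher, at 1910 against 1315 CPM. The part of these cell types was not tested.

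The counts of genes that rose depended on single libraries, and the number of all tested genes past the threshold in either direction moved with them. For afatinib the count was 33 without afatinib replicate 1, and it was 0 without any other single library, whether afatinib replicate 2, gefitinib replicate 1 or 2, or untreated replicate 1 or 2. Over all genes the afatinib count was 652 with all libraries, 3653 without afatinib replicate 1, 134 without afatinib replicate 2, 69 and 65 without gefitinib replicate 1 or 2, and 1 and 0 without untreated replicate 1 or 2. For gefitinib the count among the 39 was 11 without gefitinib replicate 1, 4 without gefitinib replicate 2, and 0 without untreated replicate 1 or untreated replicate 2, where 32 and 36 genes still had an unadjusted p under 0.05. Over all genes the gefitinib count was 2906 with all libraries and 808, 371, 10 and 0 without these 4 libraries. For the mean of both inhibitors 16, 13, 0 and 0 of the 39 genes passed without the same 4 libraries, against 1245, 926, 20 and 3 of all genes and 2618 with all libraries. The median log2 fold change was less affected, between 0.96 without afatinib replicate 2 and 1.63 without afatinib replicate 1 for afatinib, and between 1.73 without untreated replicate 1 and 1.97 without untreated replicate 2 for gefitinib.

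The MCM helicase is a ring of 6 different subunits that unwinds DNA ahead of the polymerases. With afatinib 3 of the 6 genes rose (Mcm3, Mcm5 and Mcm6), and with gefitinib all 6 rose, with median log2 fold changes of 1.73 and 2.33. Mcm5 (ENSRNOG00000014336, chromosome 19, 14523554 to 14561278 in the coordinates of the deposited table, for which no label names a build) stood at 20.01 and 41.5 CPM with afatinib, 46.9 and 42.4 CPM with gefitinib, and 2.35 and 6.92 CPM in untreated skin. All 4 inhibitor libraries were above both untreated ones, and afatinib replicate 1 was the lowest of the 4. Its log2 fold change was 2.72 ± 0.55 (SE, n = 2 libraries a group) with afatinib (edgeR adjusted p = 0.045) and 3.26 ± 0.56 with gefitinib (edgeR adjusted p = 0.015). Mcm7, the most abundant subunit, had 70.0 and 83.8 CPM with afatinib, 103 and 116 CPM with gefitinib, and 51.5 and 60.9 CPM in untreated skin. These groups did not overlap either, but the distance was small, with a log2 fold change of 0.45 ± 0.25 with afatinib (edgeR adjusted p = 0.33) and 0.96 ± 0.25 with gefitinib (edgeR adjusted p = 0.0404). Mcm2 and Mcm4 rose with gefitinib by 2.10 and 1.56 on the log2 scale and stood at 1.60 and 1.24 with afatinib, where they did not pass. Mcm3 rose by 2.45 with afatinib and 3.07 with gefitinib, and Mcm6 by 1.86 and 2.57.

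Promoters of these genes are shown because E2F motifs in them are a textbook feature of S phase genes. The 4 replication genes with the most counts among those whose promoter window holds such a motif were all MCM subunits. Each window runs from 250 bases before to 50 bases after the annotated start, is taken from RefSeq on build GRCr8, and is written 5′ to 3′ on the gene's strand, here the minus strand. The windows are chr12:22163129-22163428 for Mcm7, chr4:122918045-122918344 for Mcm2, chr13:42404303-42404602 for Mcm6 and chr9:30733697-30733996 for Mcm3. Capitals mark each match to the E2F motif on either strand.
Mcm7: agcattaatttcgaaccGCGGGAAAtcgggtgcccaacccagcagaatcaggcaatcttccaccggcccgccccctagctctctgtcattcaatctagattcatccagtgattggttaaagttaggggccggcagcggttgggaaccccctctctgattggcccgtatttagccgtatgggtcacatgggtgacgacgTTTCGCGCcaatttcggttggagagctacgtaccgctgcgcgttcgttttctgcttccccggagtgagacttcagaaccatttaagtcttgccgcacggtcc
Mcm2: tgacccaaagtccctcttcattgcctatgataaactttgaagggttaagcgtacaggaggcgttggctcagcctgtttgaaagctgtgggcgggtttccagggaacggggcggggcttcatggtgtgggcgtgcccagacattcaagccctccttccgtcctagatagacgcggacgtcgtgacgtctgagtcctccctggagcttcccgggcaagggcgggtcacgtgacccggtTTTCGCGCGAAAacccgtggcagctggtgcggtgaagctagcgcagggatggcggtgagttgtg
Mcm6: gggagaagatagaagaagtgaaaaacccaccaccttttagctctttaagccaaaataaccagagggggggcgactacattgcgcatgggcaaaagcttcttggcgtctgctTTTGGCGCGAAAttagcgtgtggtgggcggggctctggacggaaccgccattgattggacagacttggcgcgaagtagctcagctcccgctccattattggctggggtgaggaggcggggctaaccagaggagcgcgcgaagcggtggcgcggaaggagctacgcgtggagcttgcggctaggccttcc
Mcm3: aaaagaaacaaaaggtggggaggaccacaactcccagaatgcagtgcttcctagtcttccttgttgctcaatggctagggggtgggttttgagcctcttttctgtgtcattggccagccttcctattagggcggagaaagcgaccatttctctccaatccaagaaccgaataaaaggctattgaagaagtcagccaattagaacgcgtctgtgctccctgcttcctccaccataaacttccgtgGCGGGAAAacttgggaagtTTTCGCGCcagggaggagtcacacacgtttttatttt
In Mcm2 and Mcm6 the capitals are a pair of matches on opposite strands that overlap. In Mcm3 the matches are centred at −2.5 and 16.5 bases from the start, and in Mcm7 they are centred at −229.5 and −48.5 bases from it.

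Shorter windows show the same motif in genes that differed in their response and were chosen after their values were seen. Mcm5 (chr19:13488590-13488617, plus strand) and Gins3 (chr19:9434698-9434725, minus strand) rose with both inhibitors, and Cdt1 (chr19:67529246-67529273, plus strand) rose with gefitinib. Pola1 (chrX:62342510-62342537, minus strand) and Tyms (chr9:120776103-120776130, minus strand) passed with neither. Capitals again mark the E2F motif.
Mcm5: agctcagaagTTTCGCGCCAAAacgtcc
Gins3: tgagtgaggcGCGGGAAAacgagtttga
Cdt1: cgcgaaaattGCGCGAAAtccgcgggaa
Pola1: tcatcacaggGCGCCAAAtgcagtcccg
Tyms: aggtgcgggtTTTGGCGCcgactacact
The Mcm5 window again holds overlapping matches on opposite strands.

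The motif was searched on both strands as TTTCCCGC, TTTGGCGC, TTTCGCGC or TTTGCCGC. Promoters were matched by symbol for 33 of the 39 genes (not for Mcm4, Orc1, Cdc6, Gins4, Rrm2 and Ccne2), and 14 of the 33 held the motif, or 42.4%. Among all 33469 promoters in that RefSeq set 2.14% held it, and among the 21851 of protein-coding genes 2.74%. It was as frequent in genes that rose for the mean of both inhibitors (11 of 26) as in those that did not pass (3 of 7). The median log2 fold change was 1.55 in the 14 genes with the motif and 1.53 in the 19 without it. The CCAAT box, searched as CCAAT, was in 20 of the 33 promoters, or 60.6%, against 37.5% of all promoters. The CHR motif TTTGAA is a known element of genes expressed in G2 phase and mitosis. It was in 2 of the 33 promoters, those of Mcm2 and Gins3, or 6.06%, against 18.3% of all promoters. Of 11 promoters of mitosis genes 7 held it. Of 51 promoters of other replication genes, outside the 39, 16 held the CHR motif, or 31.4%, and 18 the E2F motif, or 35.3%. The low share of the CHR motif was thus seen in this list and not in the other list. That difference was not tested. A match is a description of these letters and not a binding site or a cause.

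**Figure D2:**
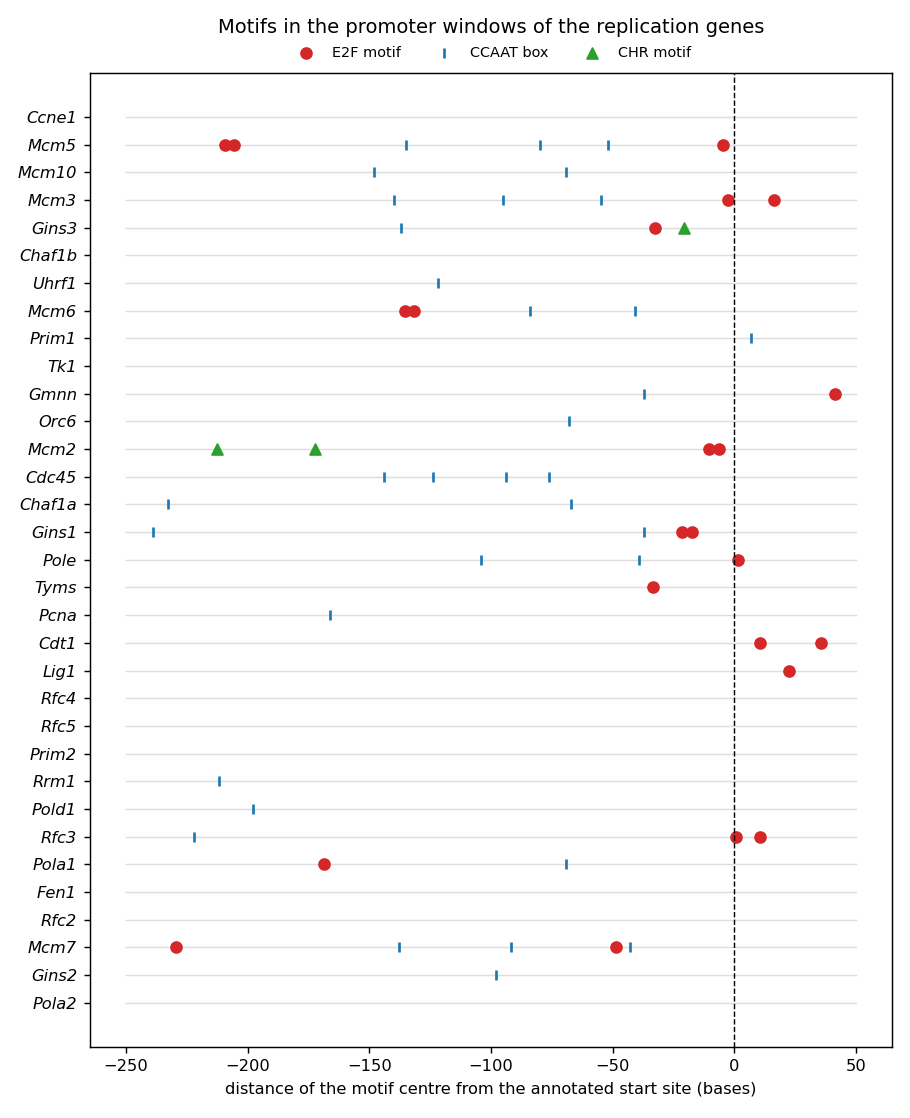
Positions of E2F motifs (red circles), CCAAT boxes (blue bars) and CHR motifs (green triangles) in the 33 promoter windows found, as the distance in bases of the motif's centre from the annotated start, with genes in the order of their log2 fold change for the mean of both inhibitors (largest at the top). The 14 genes with an E2F motif are spread from the top to near the bottom of the order.

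Licensing is carried out by the origin recognition complex with Cdc6 and Cdt1, which load the MCM ring, and is blocked by geminin (Gmnn), which binds Cdt1. Of the 5 genes Gmnn rose with afatinib, and Gmnn, Cdt1, Cdc6 and Orc6 rose with gefitinib. Cdt1 had 10.3 and 12.1 CPM with afatinib, 22.9 and 20.2 CPM with gefitinib, and 5.60 and 5.29 CPM in untreated skin. The 3 groups did not overlap, and the afatinib libraries lay between the others. Its log2 fold change was 1.05 ± 0.28 with afatinib (edgeR adjusted p = 0.0833) and 1.98 ± 0.29 with gefitinib (edgeR adjusted p = 0.0121). Gmnn rose by 1.76 ± 0.31 with afatinib (edgeR adjusted p = 0.0356) and by 2.02 ± 0.31 with gefitinib (edgeR adjusted p = 0.0128).

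The level of Cdt1 was also set against that of its inhibitor Gmnn. In the deposited FPKM values, which are per length, the Cdt1 level divided by the Gmnn level was 0.427 and 0.425 with afatinib, 0.821 and 0.572 with gefitinib, and 0.687 and 0.715 in untreated skin. Both afatinib libraries were below the other 4, and the gefitinib pair lay on either side of the untreated pair. The ratio was not tested.

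Cdc6, an ATPase that helps to load the ring, had 2.86 and 5.51 CPM with afatinib, 7.13 and 7.09 CPM with gefitinib, and 0.761 and 1.51 CPM in untreated skin. The groups did not overlap, and its log2 fold change was 1.87 ± 0.53 with afatinib (edgeR adjusted p = 0.0971) and 2.63 ± 0.54 with gefitinib (edgeR adjusted p = 0.0221). Orc1, an ATPase subunit of the origin recognition complex, had 2.14 and 8.02 CPM with afatinib, 5.76 and 6.61 CPM with gefitinib, and 0.484 and 1.86 CPM in untreated skin. It passed with neither drug, at 2.10 ± 0.79 (edgeR adjusted p = 0.181) with afatinib and 2.37 ± 0.80 (edgeR adjusted p = 0.0778) with gefitinib, although all inhibitor libraries were above both untreated ones. The spread within groups was wide and the counts were low, with 7 and 32 reads in the untreated libraries. Orc6, the smallest subunit of the complex, stood at 1.63 with afatinib and rose by 2.08 with gefitinib.

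Helicase activation needs Cdc45 and the GINS complex of Gins1, Gins2, Gins3 and Gins4, which bind the MCM ring, and Mcm10, which helps it start to unwind. Gins3 rose with afatinib, and Mcm10, Cdc45, Gins1, Gins3 and Gins4 rose with gefitinib. Mcm10 had 7.02 and 20.7 CPM with afatinib, 19.6 and 17.9 CPM with gefitinib, and 1.31 and 2.91 CPM in untreated skin. All inhibitor libraries were above the untreated ones, with afatinib replicate 1 well below the other 3. Its log2 fold change was 2.71 ± 0.60 with afatinib (edgeR adjusted p = 0.0547) and 3.14 ± 0.61 with gefitinib (edgeR adjusted p = 0.0194).

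Gins2 had the smallest change of the 4 GINS genes with either drug, a difference that was not tested. It had 27.7 and 33.4 CPM with afatinib, 39.0 and 51.8 CPM with gefitinib, and 28.3 and 27.4 CPM in untreated skin. The afatinib and untreated libraries overlapped, and only the gefitinib libraries lay above the rest. Its log2 fold change was 0.13 with afatinib (95% interval −0.44 to 0.71; edgeR adjusted p = 0.777) and 0.71 with gefitinib (0.13 to 1.28; edgeR adjusted p = 0.0856). Gins3 rose by 2.22 with afatinib and 2.77 with gefitinib, Gins1 stood at 1.23 and rose by 1.88, and Gins4 stood at 1.34 and rose by 1.56. Cdc45 stood at 1.42 with afatinib and rose by 1.95 with gefitinib. Cdc45 shares 1425 bases with Cldn5 on the opposite strand, and Cldn5, a tight junction gene of endothelium, had 0 counts in all 6 libraries where the endothelial gene Cdh5 had 452 to 2579. No label or header says whether the counting used strand, so the values of Cdc45 are uncertain.

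The polymerase genes showed the smallest median change of the 8 role groups, with log2 medians of 1.07 for afatinib and 1.5 for gefitinib. DNA synthesis is started by polymerase alpha-primase, in which Prim1 and Prim2 make the RNA primer and Pola1, with its partner Pola2, extends it. Prim1 had 27.4 and 44.1 CPM with afatinib, 51.7 and 57.0 CPM with gefitinib, and 11.8 and 9.89 CPM in untreated skin. The groups did not overlap, and Prim1 rose by 1.72 ± 0.30 with afatinib (edgeR adjusted p = 0.035) and by 2.33 ± 0.30 with gefitinib (edgeR adjusted p = 0.0105).

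Pola2 (ENSRNOG00000020906, chromosome 1) had the smallest change of all 39 genes for the mean of both inhibitors. Its level was 27.5 and 19.7 CPM with afatinib, 24.3 and 25.0 CPM with gefitinib, and 19.99 and 20.5 CPM in untreated skin. Afatinib replicate 2 was below both untreated libraries. The log2 fold change was 0.22 with afatinib (95% interval −0.38 to 0.82; edgeR adjusted p = 0.645) and 0.28 with gefitinib (−0.32 to 0.88; edgeR adjusted p = 0.442). In the deposited coordinates Pola2 shares 7643 bases with Cdc42ep2 on the same strand, so reads in the shared stretch may have been split or dropped by the counting, and its values are uncertain.

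Pola1, the catalytic subunit, had 7.73 and 19.7 CPM with afatinib, 20.03 and 18.6 CPM with gefitinib, and 6.85 and 8.26 CPM in untreated skin. Afatinib replicate 1 lay between the untreated libraries, and the other 3 inhibitor libraries lay close together above them. It passed with neither drug, at 0.87 ± 0.44 with afatinib (edgeR adjusted p = 0.303) and 1.35 ± 0.45 with gefitinib (edgeR adjusted p = 0.0743). Without afatinib replicate 2 the afatinib value was −0.03. Pola1 shares up to 1672 bases with loci on the opposite strand and up to 799 bases with loci on its own strand. Its values are thus uncertain for the reasons given for Cdc45 and Pola2. Prim2 rose with gefitinib by 1.46, Pold1, which copies the lagging strand, by 1.55, and Pole, which copies the leading strand, by 1.66. With afatinib these 3 stood at 1.12, 1.02 and 1.44 and did not pass.

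**Figure D3:**
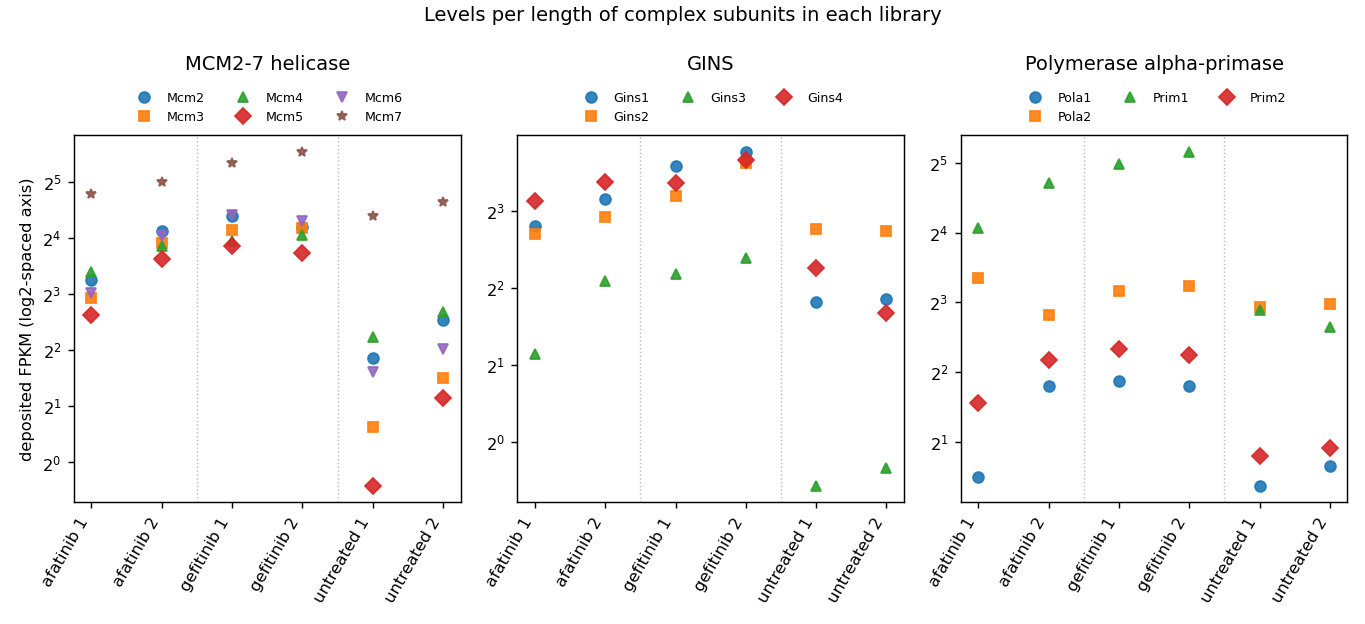
Deposited FPKM (log2-spaced axis), a level per length, of the subunits of the MCM helicase, GINS and polymerase alpha-primase in each library. In the untreated libraries the highest MCM subunit was 27.9 and 11.2 times the lowest, against 4.46 and 2.58 times with afatinib and 2.79 and 3.47 times with gefitinib.

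Within complexes the levels per length of the subunits lay closer together in rash skin for MCM and GINS. The highest MCM subunit (Mcm7) was 4.46 and 2.58 times the lowest (Mcm5) in deposited FPKM with afatinib, 2.79 and 3.47 times with gefitinib, and 27.9 and 11.2 times in untreated skin. For GINS the same ratio was 3.96 and 2.44 with afatinib, 2.63 and 2.60 with gefitinib, and 10.1 and 8.39 in untreated skin. Gins3 was the lowest GINS subunit in every library, and the highest was Gins4 with afatinib, Gins1 with gefitinib and Gins2 in untreated skin. Polymerase alpha-primase went the other way: its ratio was 11.8 and 7.46 with afatinib, 8.61 and 10.2 with gefitinib, and 5.89 and 5 in untreated skin. Pola1 was its lowest subunit throughout, while the highest was Prim1 in all inhibitor libraries and Pola2 in both untreated ones. Pola2, whose values are uncertain as said above, had 7.65 and 7.88 FPKM in untreated skin, against 7.43 and 6.28 for Prim1. The 4 clamp loader genes Rfc2, Rfc3, Rfc4 and Rfc5 kept a narrow range, with ratios of 2.90 and 2.17 with afatinib, 2.20 and 2.40 with gefitinib, and 2.23 and 2.20 in untreated skin. These ratios describe the libraries and were not tested.

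Across the 39 genes, those at lower levels in untreated skin showed larger fold changes. Pearson's r between the log2 untreated FPKM level and the log2 fold change was −0.59 for afatinib, −0.57 for gefitinib and −0.58 for their mean. Over all 16284 tested genes with an untreated FPKM above 0 it was −0.49, −0.41 and −0.46. The untreated values enter both axes and the genes share the same 6 libraries, so this is a description and was not tested.

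**Figure D4:**
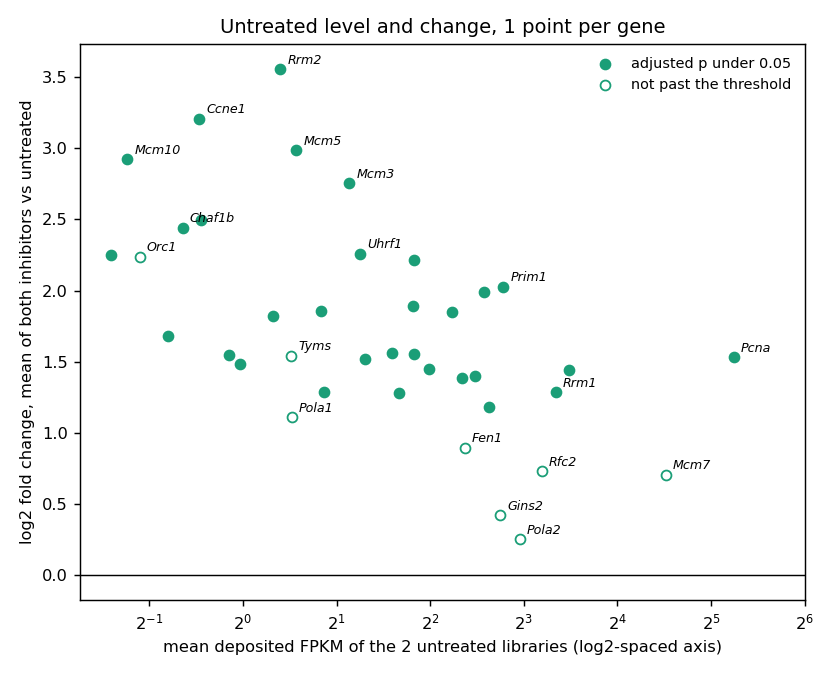
Mean deposited FPKM of the 2 untreated libraries (log2-spaced axis) against the log2 fold change for the mean of both inhibitors, 1 point for each of the 39 replication genes. Filled points are the 31 genes with an edgeR adjusted p under 0.05, and Pcna stands apart as a gene with both a high untreated level and a change of 1.53.

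The sliding clamp Pcna is loaded by replication factor C, of which Rfc2, Rfc3, Rfc4 and Rfc5 are the small subunits. Fen1 removes flaps at the ends of Okazaki fragments and Lig1 seals them. Of these 7 genes Rfc4 rose with afatinib, and all but Rfc2 rose with gefitinib. Pcna, the most abundant of the 39 genes, had 83.6 and 123 CPM with afatinib, 150 and 153 CPM with gefitinib, and 34.4 and 52.3 CPM in untreated skin. The groups did not overlap, and its log2 fold change was 1.26 ± 0.32 with afatinib (edgeR adjusted p = 0.0755) and 1.80 ± 0.33 with gefitinib (edgeR adjusted p = 0.0168). Rfc2 had 19.7 and 20.9 CPM with afatinib, 28.3 and 23.2 CPM with gefitinib, and 12.2 and 15.4 CPM in untreated skin. Its libraries did not overlap between inhibitor and untreated groups, yet it passed with neither drug, at 0.56 ± 0.26 with afatinib (edgeR adjusted p = 0.265) and 0.90 ± 0.26 with gefitinib (edgeR adjusted p = 0.0528). Rfc4 rose by 1.28 ± 0.24 with afatinib (edgeR adjusted p = 0.0388) and by 1.60 ± 0.24 with gefitinib. Rfc3, Rfc5, Fen1 and Lig1 rose with gefitinib by 1.28, 1.54, 1.27 and 1.62. With afatinib they stood at 1.09, 1.22, 0.52 and 1.34. Fen1 shares 507 bases with a locus of 0 counts on the opposite strand, so its values are uncertain for the same reason as those of Cdc45.

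Deoxynucleotides come from ribonucleotide reductase, made of the large subunit Rrm1 and the small subunit Rrm2, and from the thymidylate pathway of Tyms and the salvage kinase Tk1. Rrm2 had the largest change of all 39 genes. It held 67 and 691 reads with afatinib, 629 and 421 with gefitinib, and 8 and 43 in untreated skin. In CPM these were 4.35 and 26.6 with afatinib, 24.7 and 18.4 with gefitinib, and 0.553 and 2.50 in untreated skin. The inhibitor libraries were all above the untreated ones, but afatinib replicate 1 was far below the other 3, and the untreated pair differed as well. The log2 fold change was 3.32 ± 0.94 with afatinib (edgeR adjusted p = 0.0957) and 3.79 ± 0.96 with gefitinib (edgeR adjusted p = 0.0378).

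Rrm1 had 68.2 and 93.0 CPM with afatinib, 104 and 115 CPM with gefitinib, and 34.5 and 42.7 CPM in untreated skin. Its groups did not overlap, and it stood at 1.06 ± 0.27 with afatinib (edgeR adjusted p = 0.0739) and rose by 1.51 ± 0.27 with gefitinib (edgeR adjusted p = 0.0166). Per length, the Rrm1 level was 4.77 and 1.06 times that of Rrm2 with afatinib, 1.29 and 1.91 times with gefitinib, and 19.0 and 5.2 times in untreated skin. Afatinib replicate 1 was the inhibitor library nearest to the untreated ones on this ratio, which was not tested.

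Tk1 had the smallest p of the 39 genes in all 3 comparisons with untreated skin. It rose by 1.70 ± 0.26 with afatinib (edgeR adjusted p = 0.0315) and by 2.28 ± 0.26 with gefitinib (edgeR adjusted p = 0.00971). Its levels were 35.2 and 49.9 CPM with afatinib, 64.7 and 62.1 CPM with gefitinib, and 12.9 and 13.3 CPM in untreated skin, with no overlap between the 3 groups. Tyms had 3.83 and 7.44 CPM with afatinib, 8.74 and 5.34 CPM with gefitinib, and 1.94 and 2.39 CPM in untreated skin. The inhibitor libraries overlapped with each other and lay above the untreated ones, and Tyms passed with neither drug, at 1.39 ± 0.49 (edgeR adjusted p = 0.161) with afatinib and 1.70 ± 0.49 (edgeR adjusted p = 0.0539) with gefitinib.

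Behind the fork, chromatin assembly factor 1, with its subunits Chaf1a and Chaf1b, places new histones, and Uhrf1 recognises hemimethylated DNA so that methylation is restored. Uhrf1 rose with afatinib and all 3 genes rose with gefitinib. Uhrf1 had 24.8 and 45.4 CPM with afatinib, 54.6 and 53.3 CPM with gefitinib, and 6.43 and 11.7 CPM in untreated skin. These groups did not overlap, and the log2 fold change was 1.95 ± 0.39 with afatinib (edgeR adjusted p = 0.045) and 2.57 ± 0.40 with gefitinib (edgeR adjusted p = 0.0133). Chaf1b had 4.16 and 7.71 CPM with afatinib, 7.45 and 9.50 CPM with gefitinib, and 0.415 and 2.15 CPM in untreated skin. All inhibitor libraries were above the untreated pair, which itself differed widely, and Chaf1b stood at 2.19 ± 0.71 with afatinib (edgeR adjusted p = 0.133) and rose by 2.70 ± 0.72 with gefitinib (edgeR adjusted p = 0.0434). Chaf1a stood at 1.28 with afatinib and rose by 1.84 with gefitinib.

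Cyclin E, encoded by Ccne1 and Ccne2, activates the kinase Cdk2 at the entry into S phase. Ccne1 rose with both drugs and Ccne2 with gefitinib. Ccne1 (chromosome 1, 94485832 to 94494980) had 7.02 and 14.3 CPM with afatinib, 16.5 and 15.5 CPM with gefitinib, and 0.692 and 2.09 CPM in untreated skin. Its groups did not overlap, and it rose by 2.92 ± 0.58 with afatinib (edgeR adjusted p = 0.044) and by 3.5 ± 0.59 with gefitinib (edgeR adjusted p = 0.015). Ccne2 had 6.24 and 16.3 CPM with afatinib, 14.6 and 16.3 CPM with gefitinib, and 3.94 and 3.55 CPM in untreated skin. Afatinib replicate 1 was the lowest inhibitor library, and Ccne2 stood at 1.60 ± 0.48 with afatinib (edgeR adjusted p = 0.108) and rose by 2.04 ± 0.48 with gefitinib (edgeR adjusted p = 0.0314). Per length, Ccne1 was 1.74 and 1.36 times the level of Ccne2 with afatinib, 1.76 and 1.47 times with gefitinib, and 0.272 and 0.914 times in untreated skin. Ccne1 was thus the higher of the pair in every inhibitor library and the lower in both untreated ones, where it had only 10 and 36 reads. Ccne2 shares 521 bases with Ints8 on the opposite strand, and so its values are uncertain for the same reason as those of Cdc45.

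**Figure D5:**
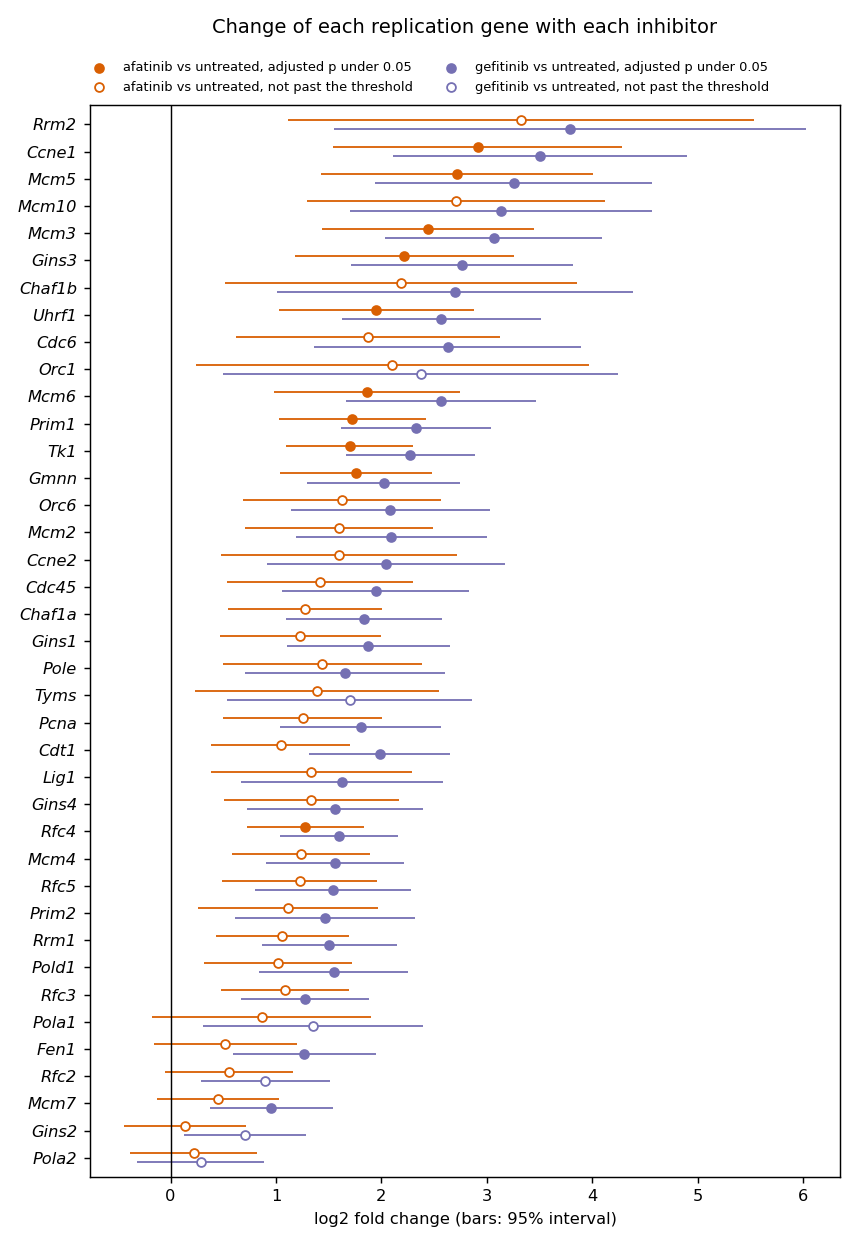
Log2 fold changes with 95% intervals of the 39 replication genes for afatinib (orange) and gefitinib (purple) against untreated skin, sorted by the mean of both inhibitors, with filled points where the edgeR adjusted p was under 0.05. The 10 genes filled for afatinib are also filled for gefitinib, and the gefitinib point lies to the right of the afatinib point for all 39 genes.

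Set directly against each other, at doses that differed, the inhibitors gave no call. For afatinib against gefitinib 0 of the 39 genes passed the edgeR test, as did 0% of all tested genes, and DESeq2 and limma-voom also called 0 of the 39. At an unadjusted p under 0.05 there were 2 genes, Cdt1 and Fen1. All 39 log2 fold changes were below 0, with a median of −0.49 and a range from −0.94 to −0.06, while the median of all tested genes was 0.04. Without afatinib replicate 1 only 31 of the 39 were below 0, and without afatinib replicate 2 or gefitinib replicate 1 there were 38. Both afatinib libraries lay below both gefitinib libraries for 25 of the 39 genes, against 19.9% of all genes. Cdt1 had the largest difference, at −0.94 with a 95% interval from −1.58 to −0.30 (edgeR adjusted p = 0.787). The median was −0.21 without afatinib replicate 1 and −0.85 without afatinib replicate 2, so its size rested on which afatinib library was used.

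A wider list of 67 replication genes outside the 39 was examined, of which 66 were found and tested and Dna2 was not analysed here. With afatinib 10 of the 66 rose and 0 fell, where 3.6% of all tested genes rose. With gefitinib 33 rose and 1 fell, against 12.3% of all genes that rose, and for the mean of both inhibitors 31 rose and 1 fell, against 11%, the share beside which the sublist counts below stand. The median log2 fold changes were 0.77, 1.17 and 0.96. Without untreated replicate 1 or untreated replicate 2 none of these genes passed in edgeR, while 20 to 41 had an unadjusted p under 0.05. For the mean of both inhibitors 7 of 10 origin firing genes rose, among them Cdc7, the kinase that activates the MCM ring (2.76 ± 0.37, edgeR adjusted p = 0.0124), and Ccna2, the cyclin of S phase and G2 (2.68, edgeR adjusted p = 0.0152). Ticrr, which brings Cdc45 to origins, had the largest value of the whole list at 4.15 ± 0.72 and was picked out after its values were seen. It had only 5 and 15 reads in the untreated libraries, and the afatinib pair differed widely, at 3.77 and 14.2 CPM. Of 10 fork and Okazaki genes 7 rose, including Wdhd1, which links the helicase to polymerase alpha (2.73, edgeR adjusted p = 0.0131), and Timeless of the fork protection complex (2.45, edgeR adjusted p = 0.0141). Of 9 chromatin genes 5 rose, including the histone chaperone Nasp (1.65, edgeR adjusted p = 0.0135) and the maintenance methyltransferase Dnmt1, which works with Uhrf1 (1.86, edgeR adjusted p = 0.0144).

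Other sublists moved less. Of 10 genes of polymerase subunits and single-strand binding 2 rose, Pole2 (2.99, edgeR adjusted p = 0.0137) and Rpa3 (1.00, edgeR adjusted p = 0.0239). Its other single-strand binding genes, Rpa1 and Rpa2, named after their values were seen, stood at −0.12 and 0.46. Of 7 licensing genes Mcm8 (1.91, edgeR adjusted p = 0.0249) and Mcmbp (0.94, edgeR adjusted p = 0.039) rose, whereas Orc2, Orc3, Orc4 and Orc5, the other subunits of the origin recognition complex on the list, also named after their values were seen, stood between −0.13 and 0.61. Of 8 nucleotide genes 3 rose, including Dck, a salvage kinase (1.90, edgeR adjusted p = 0.0359). Of 12 genes of the E2F and RB families 5 rose and 1 fell. Tfdp1, the partner of E2F proteins, rose by 1.17 (edgeR adjusted p = 0.0324). Rbl2, which encodes the RB-family protein p130 of resting cells, fell by 1.05 on the log2 scale (edgeR adjusted p = 0.0258), with 53.4 and 43.3 CPM with afatinib, 37.0 and 53.6 CPM with gefitinib, and 94.9 and 98.7 CPM in untreated skin. All 4 inhibitor libraries of Rbl2 were below both untreated ones.

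Mitosis genes were set beside the replication genes as genes of a later phase of the cell cycle. Of 13 tested 10 rose with afatinib, and all 13 with gefitinib and for the mean of both, against 3.6%, 12.3% and 11% of all genes, with median log2 fold changes of 2.42, 3.11 and 2.77. Their summed level was 370 and 721 CPM with afatinib, 871 and 920 CPM with gefitinib, and 105 and 132 CPM in untreated skin. The replication sum was 2.06 and 1.63 times the mitosis sum with afatinib, 1.55 and 1.49 times with gefitinib, and 3.53 and 3.46 times in untreated skin. Relative to the summed basal keratinocyte markers it was 0.278 and 0.268 with afatinib, 0.526 and 0.534 with gefitinib, and 0.193 and 0.347 in untreated skin, so the afatinib libraries lay between the untreated pair on that ratio and the gefitinib libraries above it. These ratios of sums were not tested, and the basal keratinocyte markers did not move together.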

How the data were processed

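RNA was taken from flash frozen back skin with Trizol and made into TruSeq libraries, per the labels' protocols, 2 libraries in each of the afatinib, gefitinib and untreated groups. The authors deposited a table of read counts per gene and a table of FPKM values, each with the 6 libraries. The submitters' processing notes name HISAT2 2.0.5. They also name the read counter featureCounts 1.5.0-p3, and DESeq2 1.16.1. No label or file header gives the build, the annotation or the strand setting of the counting. The deposited FPKM values equal the counts divided by gene length and by a per-library divisor proportional to DESeq2 size factors, so they are levels per length and were used only to compare genes within a library. Between 1.68% and 2.54% of the counts of a library fell on loci with no gene name, which stayed in the totals and in the test as loci of their own.

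Counts were tested in R 4.3.3 with edgeR 4.0.16 (filterByExpr defaults, TMM, glmQLFit and glmQLFTest, 1 term for each group over all 6 libraries, 3 residual degrees of freedom), two-sided, with Benjamini-Hochberg adjustment over all 16398 genes tested and a threshold of 0.05. CPM are scaled by TMM. DESeq2 1.42.0 and limma 3.58.1 served as alternatives, and the procedure was tested on simulated data. The members, the lists of other replication, mitosis and marker genes and the alternatives were chosen with earlier results of these data known. Every member was named. Values in each library were given for the most abundant member and the member of largest change in each role group, for members that passed with neither inhibitor, and for those at either end of the change for the mean of both inhibitors; of the other replication genes, up to 2 of smallest p in each sublist and any that moved against it were named, except 1 gene that is not reported here. Libraries of a group differed by far more than counting noise (chi-square over degrees of freedom 250 for afatinib, 83.4 for gefitinib and 107 for untreated), so none was counted as a repeat of another. Promoter sequences came from RefSeq, build GRCr8, with Python 3.11.15 and pandas 2.3.3, and figures were drawn with matplotlib 3.10.9. E2f1, Dna2 and the mitosis gene Ccnb2 were not analysed here.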

Additional observations from a re-analysis of the deposited data

How the results depend on the processing

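Counts of genes that rose or fell are given here for the 39 replication genes, with the value for the 66 other replication genes after it. For afatinib against untreated skin, with 10 and 10 genes in the test as reported, the counts were 21 and 16 with library size as the only scaling, 28 and 25 without a filter on low counts, 29 and 23 with DESeq2's Wald test, 0 and 0 with limma-voom, and 0 and 0 with only the groups compared in the fit. Over all genes the afatinib count was 652 as reported and 1281, 2083, 1992, 34 and 51 under these 5 alternatives. At an unadjusted p under 0.05 limma-voom had 33 of the 39 and the fit on only the groups compared 32. Library size as the only scaling moved the median of all genes to 0.71, 0.73 and 0.72 on the log2 scale for afatinib, gefitinib and their mean, and those of the 39 genes to 2.07, 2.55 and 2.24. Leaving out 1 library at a time gave 0 to 33 of the 39 genes for afatinib, 0 to 38 for gefitinib and 0 to 37 for their mean, and 0 to 33, 0 to 45 and 0 to 44 of the 66; the remaining library of the group was then assumed to vary like the other groups. Whether the replicate numbers pair the libraries is not known. Correlations of same-numbered deviations between groups were −0.228, 0.0596 and 0.0405, which cannot decide it with 2 libraries a group. A fit with the replicate number as a block gave 5 and 6 genes for afatinib. It gave 31 and 29 for gefitinib, and 30 and 28 for their mean. The DESeq2 size factors left the counts for the 39 genes at 10 for afatinib, 33 for gefitinib and 30 for their mean. TMM without muscle, hair shaft and inner root sheath genes left them at 10, 33 and 31. A filter of 10 counts in every library of a group gave these same counts. The mean of both inhibitors uses all 6 libraries, so it had no fit on fewer groups. In the comparisons with untreated skin 3 of the 39 genes changed sign under an alternative, all for afatinib. With 1 library left out there, Pola2 ranged from −0.044 (without afatinib replicate 1) to 0.38, Gins2 from −0.0625 (without afatinib replicate 2) to 0.25, and Pola1 from −0.0257 (without afatinib replicate 2) to 1.38. Apart from the smaller number of libraries, the cause was not tested. For afatinib against gefitinib all 39 genes stayed below 0 except when 1 library was left out, where 31 to 39 did. With 2 libraries a group the test for afatinib against gefitinib called 0 of the 39 genes under every alternative run, which does not show that the drugs act alike.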
